A study of Saccharomyces cerevisiae with 4 samples.

Results

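The 9 genes described here were 8 transcription regulators of filamentous growth in budding yeast, *TEC1*, *HMS1*, *PHD1*, *SOK2*, *MGA1*, *FLO8*, *DIG1* and *DIG2*, and the cell-surface adhesin gene *FLO11*. They were selected by identifier out of the 6692 genes in the count table, and the selection was made with the difference between the strains already known, so their values in that comparison are a description. RNA-seq was performed on 2 wild-type cultures and 2 *sis2Δ* cultures, with the replicates of each strain lettered A and B. The wild type was BY4741, a haploid laboratory strain with the genotype *MATa his3Δ1 leu2Δ0 met15Δ0 ura3Δ0*, and the *sis2Δ* strain, taken from the *MATa* deletion collection, has the same background with *SIS2* replaced by *kanMX*. *SIS2* encodes an inhibitor of protein phosphatase Z that also takes part in coenzyme A synthesis. Cultures of 15 ml were in mid-log growth in synthetic complete liquid medium with 2% glucose, which is not the nitrogen-poor agar on which diploid cells form pseudohyphae. Stranded libraries were made from polyadenylated RNA.

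Filamentous growth is a developmental switch in which yeast cells elongate, bud in one direction and stay attached to each other. In one branch, a MAP kinase cascade shared in part with the mating pathway ends on the transcription factor Ste12, which binds DNA together with Tec1 at filamentation genes and is held back by the inhibitors Dig1 and Dig2. In another branch, protein kinase A acts through Flo8 and its partner factors, and Phd1, Sok2, Mga1 and Hms1 form a further layer of DNA-binding regulators, several of which are known to bind the long promoter of *FLO11*.

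The libraries held 19001619 to 28069619 gene counts each, and levels are given as CPM, that is, counts per 1000000 after scaling by TMM. Where values come in pairs, replicate A is given before replicate B. A gene was tested if 0.5 CPM was reached in at least 2 libraries, as 5959 genes did, and adjusted p-values are from edgeR's quasi-likelihood fit over all of these genes, adjusted by Benjamini-Hochberg. The library labels fitted the deletion: *SIS2* had 3991 and 2208 counts in the wild type and 6 and 9 in *sis2Δ*. Among the auxotrophic markers that both strains lack, no count fell on *URA3* or *MET17* and 1 fell on *LEU2*, in *sis2Δ* B. These markers fit the shared background and cannot tell the strains apart, and *HIS3* was not examined. At an adjusted p under 0.05, 362 genes were called, 162 higher and 200 lower in *sis2Δ*, and scaling by library size alone gave 188 higher and 128 lower. Of the markers that cells of mating type alpha express, all 4 had counts in these *MATa* strains, none was at 0 in all libraries, and their summed level was 44.5 to 47.5 CPM in the wild type and 80.1 to 80.4 CPM in *sis2Δ*. Most of these sums was *SAG1*, with a mean of 35.0 CPM in the wild type and 65.2 CPM in *sis2Δ*. *MF(ALPHA)2*, at 1 to 11 counts per library, did not reach the level for testing. The 4 a-cell markers summed to between 1209 and 1277 CPM in the wild type and between 1673 and 1715 CPM in *sis2Δ*, and the part of these shifts in the results below was not tested. In bulk RNA, a change in the share of cells that express a gene and a change in its level per cell cannot be told apart.

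All 9 genes passed the filter on low values. *TEC1*, *HMS1*, *PHD1* and *FLO11* were called higher in *sis2Δ*, none was called lower by edgeR, limma-voom or DESeq2 or had a lower level at an unadjusted p under 0.05, and the other 5 did not pass the test. Of all tested genes, 2.72% were called higher, 3.36% lower and 6.07% in either direction. In 5 of the 9, the 4 called genes and *FLO8*, the *sis2Δ* libraries were both above the wild-type ones, as they were for 24.5% of all tested genes, and in none were they both below, as for 28.6% of all tested genes. Since the genes were chosen with this comparison known, nothing is read from these shares. The log2 fold change was above 0 for 8 of the 9, with a median of 0.31 beside -0.00498 over all tested genes. In both strains replicate A was above replicate B for 8 of the 9 genes, *DIG2* being the exception, as it was for 25.3% of all tested genes, and the part of this in the results was not tested.

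**Figure D1:**
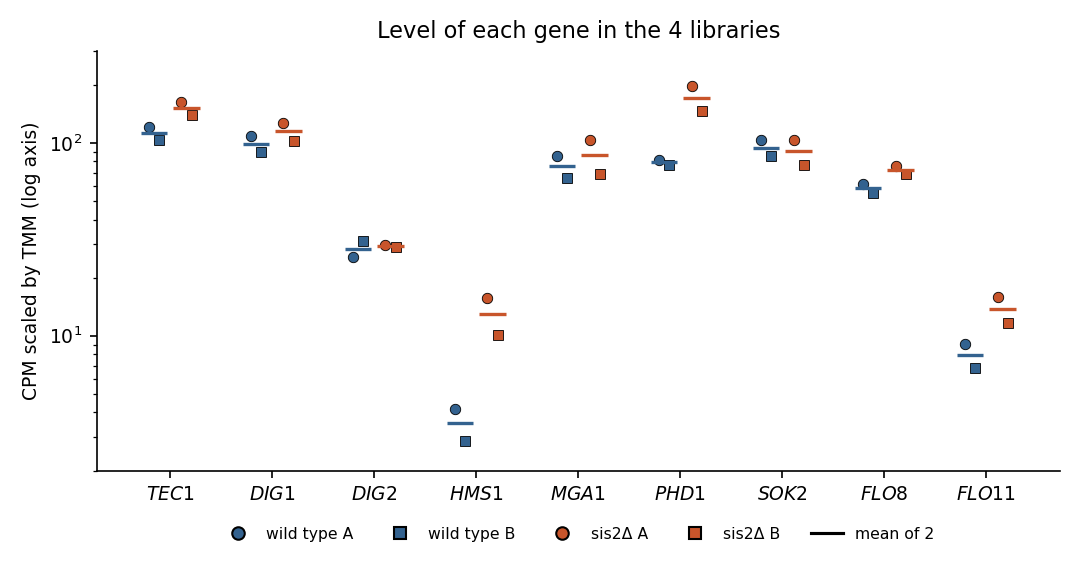
Level of each of the 9 genes in the 4 libraries, in CPM scaled by TMM on a log axis. Circles are replicate A and squares replicate B, blue is wild type, orange is *sis2Δ*, and the bar is the mean of the 2 libraries. The *sis2Δ* points lie clear of the wild-type points for *HMS1*, *PHD1*, *FLO11*, *TEC1* and *FLO8*, and mix with them for the other 4 genes.

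*TEC1* (YBR083W, chromosome II from 409169 to 410629, plus strand, R64) encodes the TEA-domain transcription factor that directs Ste12 to filamentation genes. Its counts were 3267 and 1963 in the wild type and 3364 and 3420 in *sis2Δ*. Its level was 120 and 104 CPM in the wild type and 164 and 139 CPM in *sis2Δ*. The strains thus did not overlap, and the difference between them was larger than that between replicates. The mean went from 112 ± 11.4 CPM to 151 ± 17.2 CPM (SD, n = 2 each), and the fitted log2 fold change was 0.43 (standard error 0.12, 95% interval 0.18 to 0.69, adjusted p = 0.0490 from edgeR), or 1.35-fold. This placed *TEC1* at rank 150 by size among the 162 genes called higher, and its adjusted p lay close to the threshold. Without wild-type library B its log2 fold change was 0.36 with an adjusted p of 0.332 from edgeR, and without *sis2Δ* library A it was 0.33 with an adjusted p of 0.185, so the call was lost in both cases while the direction held. In each fit without 1 library, a strain is left with 1 library that is assumed to vary like the other strain. A call kept or lost there rests on the spread of the other strain's 2 libraries and on edgeR's model over all tested genes.

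Ste12 is known to bind the pheromone response element, TGAAACA, and Tec1 to bind CATTCC, with CATTCT as a weaker variant. These 3 motifs were searched on both strands in the 1000 bases upstream of the start codon of 6002 protein-coding genes. CATTCC and CATTCT differ in the last base, and TGAAACA can run into either through a shared CA, but no matches listed for the 9 genes overlap. TGAAACA occurred at least once upstream of 23.0% of the genes, CATTCC of 35.3% and CATTCT of 51.1%. The *TEC1* upstream region held 4 matches to TGAAACA and 2 to CATTCC, at -509, -390, -159 and -94 and at -439 and -400 bases from the start codon. *TEC1* was the 1 gene of the 6002 with at least 4 matches to TGAAACA, and 15 genes had at least 3. The 150 bases that hold 4 of these 6 matches, including a Tec1 and a Ste12 motif that lie 4 bases apart, are shown because *TEC1* stands out by this count. They run 5′ to 3′ on the plus strand from -520 to -371 (chrII:408649-408798, R64 from RefSeq), and the capitals mark the motifs, with TGTTTCA and GGAATG being TGAAACA and CATTCC read on the other strand. A match is a string of letters and not a measured binding site.
TEC1: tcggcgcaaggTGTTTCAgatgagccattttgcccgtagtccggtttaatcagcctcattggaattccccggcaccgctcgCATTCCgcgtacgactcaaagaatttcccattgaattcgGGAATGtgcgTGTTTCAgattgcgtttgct

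*DIG1* (YPL049C, chromosome XVI from 462481 to 463839, minus strand) and *DIG2* (YDR480W, chromosome IV from 1417399 to 1418370, plus strand) encode the paired inhibitors that bind Ste12, and Dig1 is known to act also on the Ste12-Tec1 complex. *DIG1* had 108 and 90.05 CPM in the wild type and 126 and 103 CPM in *sis2Δ*. The *DIG1* ranges overlapped, and its log2 fold change was 0.21 (95% interval -0.07 to 0.49, adjusted p = 0.373 from edgeR). *DIG2* had 25.7 and 30.9 CPM in the wild type and 29.4 and 28.8 CPM in *sis2Δ*, with both *sis2Δ* values inside the wild-type range. Its log2 fold change was 0.05 (95% interval -0.24 to 0.33, adjusted p = 0.873 from edgeR). Neither inhibitor passed the test, and the intervals leave room for a rise of up to 0.49 for *DIG1* and 0.33 for *DIG2* on the log2 scale. The longest stretch of coding sequence that the 2 genes share is 10 bases, so reads of 100 bases tell them apart.

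*HMS1* (YOR032C, chromosome XV from 389771 to 391075, minus strand) encodes a basic helix-loop-helix protein that was found as a high-copy suppressor of the filamentation defect of an ammonium permease mutant. It was the gene with the largest difference of the 9. Its counts were 114 and 54 in the wild type and 323 and 247 in *sis2Δ*, and its level was 4.19 and 2.86 CPM against 15.7 and 10.1 CPM. The libraries were well separated, although replicate A was above replicate B in both strains. The mean went from 3.52 ± 0.94 CPM to 12.9 ± 3.99 CPM (SD, n = 2 each), and the fitted log2 fold change was 1.83 (standard error 0.24, 95% interval 1.30 to 2.36, adjusted p = 0.000788 from edgeR), or 3.55-fold with an interval of 2.46 to 5.14. It stood at rank 4 by size among the 162 genes called higher, and the log2 fold change was 1.49 to 2.16 when any 1 library was left out.

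None of the 3 motifs was found in the 1000 bases upstream of *HMS1*, which was also so for 1461 of the 6002 genes, or 24.3%. The 150 bases from -400 to -251 on the coding strand (chrXV:391326-391475, minus strand, R64 from RefSeq) are shown to set this region beside that of *TEC1*. They carry no capitals because no motif lies in them, which says only that these letters are not in the window.
HMS1: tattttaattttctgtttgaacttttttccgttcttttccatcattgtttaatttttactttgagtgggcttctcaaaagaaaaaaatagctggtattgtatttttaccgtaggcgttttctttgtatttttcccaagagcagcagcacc

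*PHD1* (YKL043W, chromosome XI from 356748 to 357848, plus strand) and *SOK2* (YMR016C, chromosome XIII from 303236 to 305593, minus strand) encode related transcription factors with an APSES DNA-binding domain and are known to act in opposite ways, since extra Phd1 enhances pseudohyphal growth and Sok2 restrains it. *PHD1* had 2220 and 1452 counts in the wild type and 4028 and 3596 counts in *sis2Δ*. Its level was 81.6 and 76.9 CPM in the wild type and 196 and 147 CPM in *sis2Δ*. The wild-type libraries were close together, and both *sis2Δ* libraries were far above them. The mean went from 79.2 ± 3.32 CPM to 171 ± 34.9 CPM (SD, n = 2 each), and the fitted log2 fold change was 1.11 (standard error 0.13, 95% interval 0.82 to 1.40, adjusted p = 0.000365 from edgeR), or 2.16-fold. When any 1 library was left out, the log2 fold change of *PHD1* was 0.90 to 1.31. *SOK2* was at 104 and 85.0 CPM in the wild type and 104 and 76.9 CPM in *sis2Δ*, so that the libraries overlapped. Its log2 fold change was -0.07 (95% interval -0.38 to 0.25, adjusted p = 0.828 from edgeR), and it was above 0 without wild-type library A, at 0.09, and without *sis2Δ* library B, at 0.13. The longest stretch shared by the 2 coding sequences is 12 bases, so that reads from one are not expected to be counted on the other.

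Upstream of *PHD1* lay 1 match to TGAAACA, 1 to CATTCC and 3 to CATTCT, and the stretches that hold them are shown because *PHD1* is the called gene, besides *TEC1*, with matches to both factors' motifs. At least 1 TGAAACA and at least 1 CATTCC occurred together upstream of 495 genes, or 8.25% of the 6002, so this pair of matches is not rare. *DIG2*, which was not called, also held 1 TGAAACA and 1 CATTCC, so the pair is not particular to the called genes. The first stretch covers -710 to -621 (chrXI:356038-356127) and the second -500 to -411 (chrXI:356248-356337), both on the plus strand of R64 from RefSeq, with the motifs in capitals and AGAATG being CATTCT read on the other strand. The last AGAATG overlaps the first bases of a neighbouring open reading frame, *MMO1*.
PHD1, distal: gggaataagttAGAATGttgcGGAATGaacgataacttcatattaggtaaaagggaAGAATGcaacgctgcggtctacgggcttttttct
PHD1, proximal: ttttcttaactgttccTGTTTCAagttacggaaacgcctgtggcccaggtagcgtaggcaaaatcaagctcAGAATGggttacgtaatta

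*MGA1* (YGR249W, chromosome VII from 988049 to 989419, plus strand) encodes a protein with a DNA-binding domain like that of heat shock factor. It had 85.7 and 65.9 CPM in the wild type and 104 and 68.7 CPM in *sis2Δ*. The A and B libraries of a strain lay further apart than the strains did. The log2 fold change was 0.18 (95% interval -0.20 to 0.56, adjusted p = 0.585 from edgeR), and without *sis2Δ* library A it was -0.13. Its upstream region held 1 match to CATTCT and none to the other 2 motifs, and *SOK2* held 1 CATTCC and 1 CATTCT.

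*FLO8* (YER109C, chromosome V from 375215 to 377614, minus strand) encodes the activator through which protein kinase A acts on *FLO11*. Strains derived from S288C, as BY4741 is, are known to carry a nonsense mutation in it, and the annotation lists the gene as a pseudogene. In the reference, the coding frame of 800 codons holds a TAG stop at codon 142, which is the capital triplet in the bases around it, and the annotation notes tryptophan at this codon in other strains. The bases are coding positions 394 to 456 (chrV:377159-377221, minus strand, R64 from RefSeq) and are shown because they interrupt the frame of a transcript that was nonetheless counted.
FLO8: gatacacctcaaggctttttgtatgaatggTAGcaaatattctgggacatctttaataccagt

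The *FLO8* transcript was measured at 60.9 and 55.0 CPM in the wild type and at 75.5 and 68.9 CPM in *sis2Δ*. The libraries of the strains did not overlap, but the log2 fold change of 0.31 (standard error 0.11, 95% interval 0.07 to 0.56) did not pass the test (adjusted p = 0.123 from edgeR). *FLO8* held 1 match to CATTCC and 3 to CATTCT upstream and none to TGAAACA.

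*FLO11* (YIR019C, chromosome IX from 389572 to 393675, minus strand) encodes the cell-wall flocculin needed for filaments and for invasion of agar, and is the main effector on which these regulators act. Its counts were low for a gene of 4104 coding bases, at 247 and 128 in the wild type and 328 and 287 in *sis2Δ*. Its level was 9.07 and 6.78 CPM in the wild type and 15.95 and 11.7 CPM in *sis2Δ*. Both *sis2Δ* libraries were above both wild-type libraries. The mean went from 7.93 ± 1.63 CPM to 13.8 ± 3.01 CPM (SD, n = 2 each), and the fitted log2 fold change was 0.78 (standard error 0.19, 95% interval 0.36 to 1.20, adjusted p = 0.0337 from edgeR), or 1.72-fold. The call was lost without wild-type library B, where the log2 fold change was 0.63 with an adjusted p of 0.119, and without *sis2Δ* library A, where it was 0.55 with an adjusted p of 0.175, both from edgeR. Inside *FLO11*, 617 of 4005 windows of 100 bases, or 15.4%, occur more than once in the genome because of its internal repeats, and 0 of them occur outside the gene. For the other 8 genes no window was repeated.

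The upstream region of *FLO11* held 2 matches to CATTCC and 3 to CATTCT and none to TGAAACA. All of them lie in the annotated non-coding RNA gene *ICR1*, which is transcribed toward *FLO11* and is known to repress it, and all but the CATTCC at -285 also lie in the open reading frame YIR020C. The CATTCC matches are shown in 30 bases each, from -640 to -611 (chrIX:394286-394315) and from -300 to -271 (chrIX:393946-393975), on the minus strand of R64 from RefSeq with GGAATG in capitals.
FLO11, distal: gcgcagagcttGGAATGgattttcaattca
FLO11, proximal: acttgtcttatctgaGGAATGtccgtgttc

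**Figure D2:**
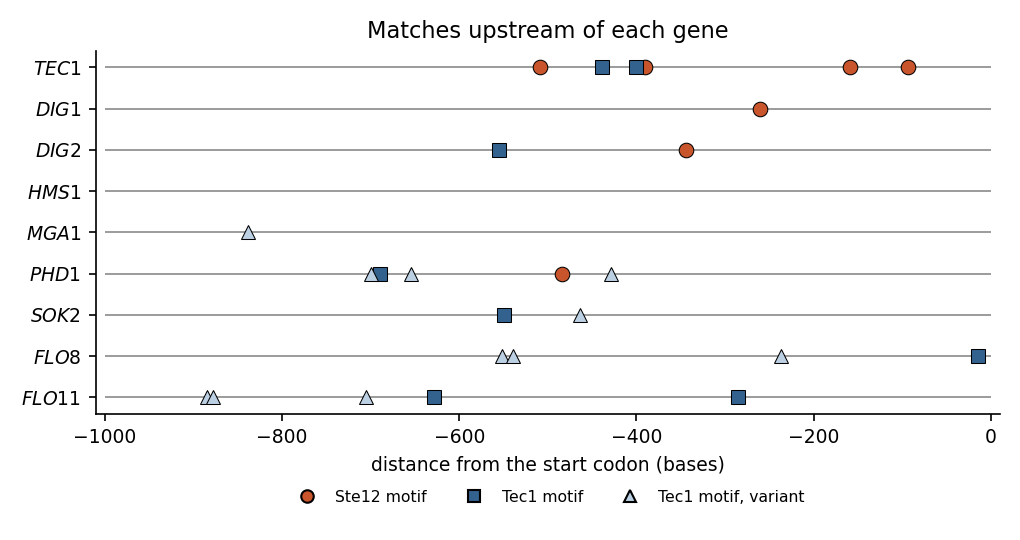
Positions of matches to TGAAACA (Ste12), CATTCC (Tec1) and CATTCT (Tec1, variant) on either strand in the 1000 bases upstream of each start codon. The *TEC1* line carries 4 Ste12 and 2 Tec1 matches, the *HMS1* line carries none, and *DIG1* and *DIG2* carry 1 Ste12 match each. The *DIG2* line also carries 1 Tec1 match.

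**Figure D3:**
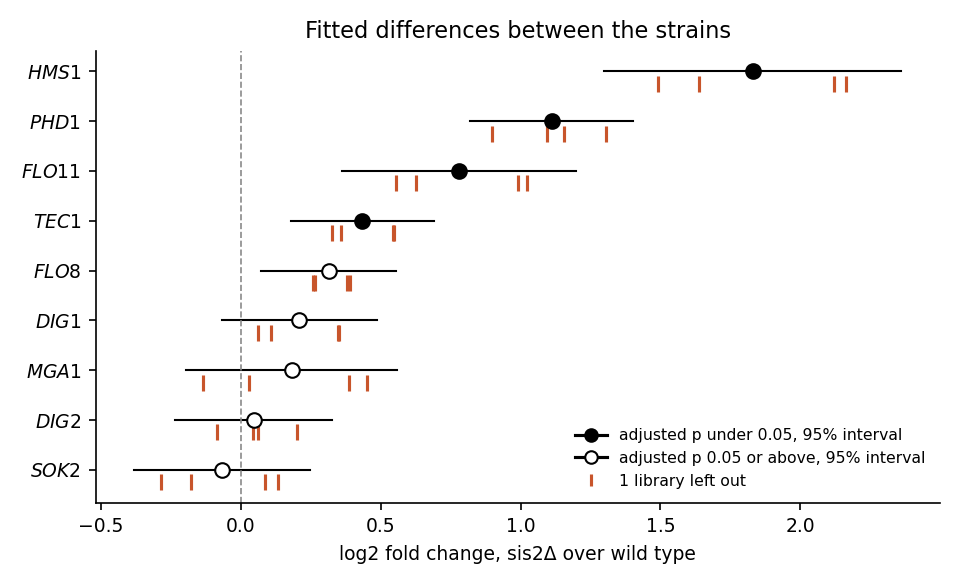
Log2 fold change of each gene, *sis2Δ* over wild type, with its 95% interval derived from the edgeR test statistic. Filled points have an adjusted p under 0.05, and the ticks below each line are the values with 1 of the 4 libraries left out. The ticks of *HMS1*, *PHD1*, *FLO11*, *TEC1*, *FLO8* and *DIG1* are all above 0, and those of *MGA1*, *DIG2* and *SOK2* fall on both sides.

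Levels of different genes were compared as CPM per kilobase of coding length, and the order within the wild type played no part in the choice of the genes. In the wild type *TEC1* was first at 76.6 ± 7.80, followed by *DIG1* at 72.8 ± 9.25 and *PHD1* at 71.9 ± 3.02 CPM per kilobase (SD, n = 2 each). These genes could not be ordered, since the ranges of neighbours overlapped. *MGA1* came next at 55.3 ± 10.2, then *SOK2* at 40.0 ± 5.64, *DIG2* at 29.1 ± 3.74 and *FLO8* at 24.1 ± 1.74 CPM per kilobase, each with a range clear of its neighbours. *HMS1*, with 3.21 and 2.19, and *FLO11*, with 2.21 and 1.65 CPM per kilobase, were far below the rest and overlapped each other. In *sis2Δ*, *PHD1* was first at 156 ± 31.7 CPM per kilobase and *TEC1* second at 104 ± 11.7, while *HMS1* at 9.88 ± 3.06 and *FLO11* at 3.37 ± 0.734 stayed in the last places.

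**Figure D4:**
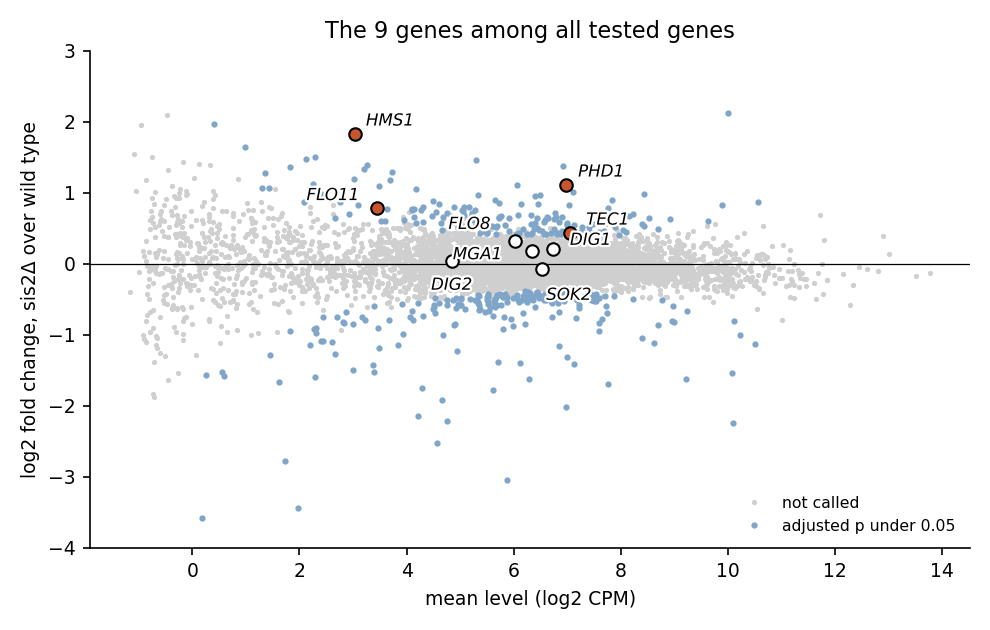
Log2 fold change, *sis2Δ* over wild type, against mean level in log2 CPM for the tested genes, with those at an adjusted p under 0.05 in blue and the 9 genes as large circles, orange where called. The axis ends at -4 and 3, and 2 genes lie beyond it, one of them *SIS2*. *HMS1* and *PHD1* stand above most genes of their level, and *TEC1* lies at the upper edge of the uncalled genes.

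Genes next to the 9 on either side were examined to see whether a difference extended along the chromosome. Of 18 such genes, 2 were called, both higher in *sis2Δ*, as were 2.72% of all tested genes. Both were neighbours of *PHD1*, named here after their values were seen. *MMO1*, on the same strand with its end 105 bases upstream of the *PHD1* start codon, had 252 and 119 counts in the wild type and 424 and 374 in *sis2Δ*. The difference was 1.18 on the log2 scale (standard error 0.20, adjusted p = 0.00466 from edgeR), close to that of *PHD1*. Counts alone cannot tell a transcript of *MMO1* from a *PHD1* transcript that starts upstream of it. *SPC42*, a spindle pole body gene 626 bases downstream, went from 38.1 to 52.0 CPM, a log2 fold change of 0.45 (adjusted p = 0.0318 from edgeR). Beside *TEC1*, the ubiquitin-conjugating enzyme gene *UBC4* and the mitochondrial folate enzyme gene *MIS1* differed by 0.10 and 0.09 on the log2 scale (adjusted p = 0.680 and 0.759 from edgeR), with overlapping libraries. Beside *HMS1*, the metallothionein gene *CRS5*, listed as a pseudogene in the annotation, was at -0.23 (adjusted p = 0.461 from edgeR). YOR032W-A, which had 8 to 18 counts per library, was at -0.57 (adjusted p = 0.581 from edgeR). YIR020C, upstream of *FLO11*, had a log2 fold change of 0.05.

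The genes whose centred log2 CPM over the 4 libraries was nearest to that of *TEC1* and *HMS1*, by root mean square difference among 5841 genes with at least 10 counts in every library, are named as the closest patterns. For *TEC1* these were *MOB2*, an activator of the kinase Cbk1, at a distance of 0.0202, the retrotransposon gene YDR261W-B at 0.0241, whose reads are uncertain because near-identical copies lie elsewhere in the genome, and *RVS167*, which acts in endocytosis, at 0.0275. Their log2 fold changes of 0.46, 0.46 and 0.40 were near the 0.43 of *TEC1*, a nearness that the distance itself takes in. YDR261W-B was called (adjusted p = 0.0436 from edgeR), but *MOB2* and *RVS167* were not (adjusted p = 0.0569 and 0.0965 from edgeR). For *HMS1* they were the cell-wall sensor gene *WSC4* at 0.259, YNL018C at 0.263 and *ROF1*, which encodes a protein with a WOPR DNA-binding domain, at 0.27. The log2 fold changes of these genes, 1.46, 1.28 and 1.39, were below the 1.83 of *HMS1*. The distance is not scaled and tends to grow with the size of a difference, so those for *HMS1* and *TEC1* cannot be compared. With 4 libraries these likenesses are a description.

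Around the 9 genes, 7 lists of pathway genes were examined in the same fit, with 20 genes called when *AGA1*, which is in 2 lists, is counted once. The lists were chosen with earlier results of these data known, so the counts describe them and nothing more is read from them. Of all tested genes, 2.72% were called higher and 3.36% lower. In the filamentation MAP kinase list of 12 genes, from the sensor *MSB2* to the transcription factor gene *STE12*, 1 was called higher and none lower, and the median log2 fold change was 0.11. The called gene was *STE12* itself, at 107 and 94.7 CPM in the wild type and 141 and 130 CPM in *sis2Δ*, which gave a log2 fold change of 0.42 (adjusted p = 0.0382 from edgeR) beside the 0.43 of its partner *TEC1*. In the list of 15 genes of the Ras and protein kinase A pathway, 1 was called lower and none higher, with a median of -0.05. It was *RAS1*, a GTPase that stimulates adenylate cyclase, at 118 and 120 CPM in the wild type and 76.8 and 93.5 CPM in *sis2Δ* (log2 fold change -0.48, adjusted p = 0.0293 from edgeR). At 1 of 12 and 1 of 15, the shares called in these lists lay near the 6.07% of all tested genes, so the single calls describe those genes and not the pathways. Neither list held a called gene without wild-type library B or without *sis2Δ* library A, and *RAS1* was not called with scaling by library size alone.

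Of 15 other transcription regulators of *FLO11* and filamentation, 1 was called, *HMS2*, a gene with a heat-shock-factor-like domain, which rose from 34.4 and 25.04 CPM to 50.7 and 40.8 CPM (log2 fold change 0.61, adjusted p = 0.0401 from edgeR). The median of this list was 0.26, and 9 of the 15 had an edgeR p under 0.05 before adjustment, as did 21.0% of all tested genes. Besides *HMS2*, the 9 included *MSS11*, the partner of Flo8, at 0.41 (adjusted p = 0.0930 from edgeR), *TUP1* at 0.40 and *MIT1* at 0.39. *SFL1* was at 0.38, *ASH1* at 0.35, *RIM101* at 0.27 and *SKN7* at 0.25. *NRG1* was the lower one of the 9, at -0.28. At 1 of 15, the share called was near the 6.07% of all tested genes. The number called in this list was not stable. On all 4 libraries it was 0 with no filter beyond 1 count, where the call of *HMS2* was lost, and 2 with DESeq2 or median-ratio scaling. It was 3 without wild-type library A, 6 without *sis2Δ* library B, and 0 without wild-type library B or without *sis2Δ* library A.

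Of 8 genes known to depend on Tec1 in filamentation, 4 were called higher and none lower, with a median of 0.48. They were *NFG1* (YLR042C), a cell-wall protein gene named for restraining filamentous growth, at 5.40 and 4.29 CPM against 11.0 and 11.3 CPM (log2 fold change 1.19), the cell-wall gene *SVS1* (0.66), the stress protein gene *DDR48* (0.58) and the G1 cyclin gene *CLN1* (0.43). The remaining 4 were *KSS1*, the filamentation MAP kinase gene, with a log2 fold change of -0.08, *MSB2* with 0.21, the bud-site gene *BUD8* with 0.19 and the pectinase gene *PGU1* with 0.53, none past the test. The count of called genes was 2 without wild-type library A and 1 without *sis2Δ* library A.

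In the list of 7 flocculins and mating adhesins, 2 were called higher and none lower. These were *AGA1* (log2 fold change 1.38) and *AGA2* (0.96), the subunits of the agglutinin by which a cells adhere in mating. The flocculin genes *FLO5*, *FLO9* and *FLO10* had log2 fold changes of 0.41, 0.48 and 0.32 and *FLO1* one of -0.47, with none past the test. *FLO11* was thus the called flocculin gene, but its call was lost with limma-voom. Both *sis2Δ* libraries were above the wild-type ones for *FLO5*, *FLO9* and *FLO10* too, as for 24.5% of all tested genes. For *FLO1* they were both below, as for 28.6%. *FLO1*, *FLO5* and *FLO9* are close copies of each other, so reads may be split between them.

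Of 16 mating genes that Ste12 activates, 10 were called higher and none lower, with a median of 0.55, and all 16 had a log2 fold change above 0, as did 49.0% of all tested genes. They encode parts of the pheromone pathway (*GPA1*, *FUS3*, *FAR1*), the a-factor precursors (*MFA1*, *MFA2*), the agglutinin subunit (*AGA1*) and proteins of cell and nuclear fusion (*FUS1*, *FIG1*, *PRM1*, *PRM2*). Their log2 fold changes ran from 0.45 for *GPA1* to 1.65 for *FIG1*, which is at 0.933 and 2.90 CPM in the strains. The count called was 6 without wild-type library A, without wild-type library B or without *sis2Δ* library A.

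Among the 3 ammonium permeases, *MEP2*, which also acts as the ammonium sensor for filamentation, had 29.3 and 27.7 CPM in the wild type and 45.8 and 44.4 CPM in *sis2Δ*, which gave a log2 fold change of 0.66 (adjusted p = 0.00544 from edgeR). *MEP3* was also called, at 0.44 (adjusted p = 0.0422 from edgeR), and *MEP1* was not, at 0.18. The count called was 1 without wild-type library A, without wild-type library B or without *sis2Δ* library B. Among the alpha-cell markers, the pheromone gene *MF(ALPHA)1* had 10 and 13 counts in the wild type and 51 and 38 in *sis2Δ* (log2 fold change 1.97, adjusted p = 0.0222 from edgeR), and the alpha-agglutinin gene *SAG1* was also called, at 0.89 (adjusted p = 0.00066 from edgeR). *STE3*, the a-factor receptor gene of alpha cells, was at 0.30 and did not pass the test. The count called was 1 without wild-type library A or without *sis2Δ* library A.

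**Figure D5:**
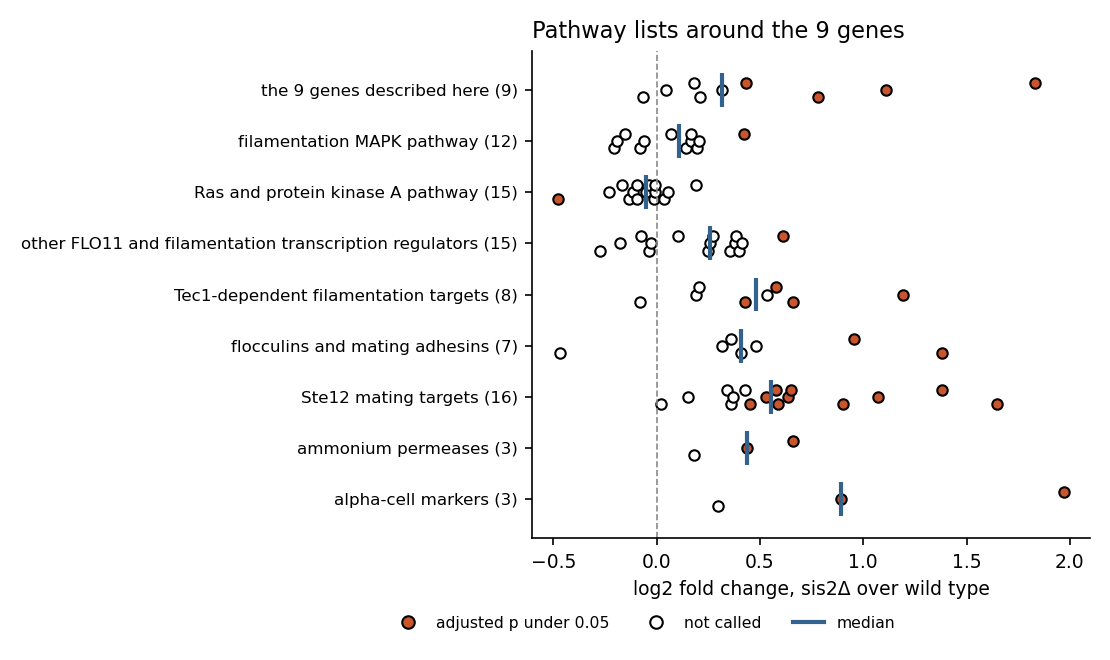
Log2 fold change, *sis2Δ* over wild type, of every tested gene in the 9 genes and the lists around them, with the number tested in brackets. Filled points have an adjusted p under 0.05 and the bar is the median. The Ste12 mating targets lie above 0, and the protein kinase A list is centred near 0 with *RAS1* at the left.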

How the data were processed

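The authors deposited raw counts per gene, made with featureCounts 2.0.1 from reads that were trimmed by cutadapt 3.7 and aligned to R64 by STAR 2.7.8a. The annotation and the treatment of multiply mapped reads are not given in the sources used here. They also deposited fold changes and p-values of their own limma 3.48.0 comparison, which were not used. The counts were compared in R 4.3.3 with edgeR 4.0.16 (quasi-likelihood test, TMM scaling, 0.5 CPM required in 2 libraries, Benjamini-Hochberg adjustment at 0.05). Standard errors were derived by dividing the size of the log2 fold change by the square root of the test's F statistic. The 95% intervals were built from these with a t quantile and are approximate. Fitted tests were checked on simulated counts.

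The members and the lists (filamentation MAP kinase, Ras and protein kinase A, other *FLO11* regulators, Tec1-dependent targets, flocculins and adhesins, Ste12 mating targets, ammonium permeases, alpha-cell markers) were chosen with earlier results of these data known. Named besides the 9 genes were the neighbours of *TEC1* and *HMS1*, the called genes of each list, *SIS2*, and the 3 genes nearest in pattern to *TEC1* and to *HMS1*. Others named for their values are stated as such or illustrate a list.

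The labels give strain and replicate letter, and the study describes the cultures as independent. A and B of a strain differed by more than counting noise (chi-square per degree of freedom 19.8 in wild type and 58.0 in *sis2Δ*). A floor of 3 counts was 0.11 to 0.159 CPM and covers counting error only. An exact two-sided permutation test of 2 against 2 libraries cannot give a p below 0.333, so calls rest on edgeR's model of the spread. Symbols and coordinates came from the RefSeq annotation of R64, which held 6008 of the 6692 identifiers. Alternatives were DESeq2 1.42.0, voom of limma 3.58.1, edgeR's legacy fit, scaling by library size alone or by median ratios, filters of 1 count in all or of 10 counts in each library, a replicate block, and leaving out each library.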

Additional observations from a re-analysis of the deposited data

How the results depend on the processing

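*HMS1* and *PHD1* were called under all 8 alternatives on the 4 libraries. Without 1 library the log2 fold change was 1.49 to 2.16 for *HMS1* and 0.90 to 1.31 for *PHD1*. In those fits the lone library is assumed to vary like the other strain. The spread then rests on the other strain's 2 libraries and on edgeR's model over all tested genes. *TEC1* was called under 6 of the 8, with adjusted p between 0.00219 and 0.0585. It was not called with no filter beyond 1 count, where its log2 fold change was 0.45, or with at least 10 counts in every library, where it was 0.43. Leaving out 1 library gave 0.33 to 0.55. *FLO11* was called under 7 of the 8 and missed the threshold with limma-voom (0.75, adjusted p = 0.0524). Leaving out 1 library gave 2 to 4 called members, 10 to 24 called pathway genes and 198 to 1051 called genes in all, with 331 without wild-type A, 198 without wild-type B, 208 without *sis2Δ* A and 1051 without *sis2Δ* B. Genes that did not pass the test changed sign: *SOK2* (-0.29 to 0.13) was at 0.086 without wild-type A and 0.13 without *sis2Δ* B, *DIG2* (-0.084 to 0.20) at -0.084 without wild-type A, and *MGA1* (-0.13 to 0.45) at -0.13 without *sis2Δ* A. The cause was not tested.

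The strains share the letters A and B, but the A minus B differences correlated at 0.0719 across genes, so the letters were not taken to pair cultures. That correlation covers all genes and cannot decide the question for the members. The level in A over that in B, wild type first, was 1.47 and 1.56 for *HMS1* and 1.34 and 1.36 for *FLO11*. It was 1.16 and 1.17 for *TEC1*, but 1.06 and 1.34 for *PHD1* and 0.833 and 1.02 for *DIG2*. Whether the letters share an effect in these genes was not tested. With the replicate block 788 genes were called, and among the members *FLO8* was called too (0.32, adjusted p = 0.0465), as were 6 of the other *FLO11* regulators and 4 of the adhesins. With 2 libraries per strain, small differences such as that of *TEC1* lie at the limit of this depth of replication.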
